A study of Drosophila melanogaster with 4 samples.

Results

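Of 25026 peaks of the helicase Maleless (MLE) called in control 2-4 h Drosophila melanogaster embryos on the X and the autosome arms, 2099 had a midpoint more than 5000 bp from the span of every gene in the RefSeq table of Release 6. These gene-far peaks were chosen by position alone, after repeated intervals of the list had been collapsed and the Y left out. They made up 8.39% of the list, with a Clopper-Pearson 95% interval of 8.05% to 8.74%, whereas 12.8% of the bases of the 6 arms lie that far from a gene. All 2099 are described below, with no filter on score.

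MLE is an ATP-dependent RNA helicase that remodels the roX non-coding RNAs and joins them to the MSL proteins in the dosage compensation complex of males. The complex is known to enter the X at sites rich in GA repeats, to which the zinc finger protein CLAMP also binds, and to spread from there to transcribed genes. Sequence without a gene nearby lies outside the gene bodies for which that complex is known. In the fly genome it is of 2 kinds: stretches between genes of the gene-rich arms, and repeat-rich heterochromatin next to the centromeres.

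The assay was CUT&RUN with a rat antibody to MLE, in which a tethered nuclease releases the DNA around bound sites of permeabilised embryos. Meiotic drive stocks were used in the crosses so that the whole embryos collected were male. Mothers of all 4 groups carried MTD-GAL4, a driver active in the female germ line. Control mothers expressed RNAi against GFP (MTD-GAL4>GFPRNAi) and depleted mothers RNAi against CLAMP (MTD-GAL4>CLAMPRNAi), so that what was lowered is the maternal supply. Embryos were 0-2 h or 2-4 h old and were pooled from many layings, and the titles and the design text disagree on whether the later age precedes the maternal to zygotic transition.

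The design text speaks of 2 replicates per genotype and age, but each group is represented by 1 peak list, and whether replicates were pooled is not stated. So no comparison between groups has a replicate check and no p-value is given. Intervals are 95% intervals of counting over peaks, and an interval of a difference compares lists or classes of peaks, not embryos. None is adjusted for the number of comparisons. The lists are called early (0-2 h) and late (2-4 h) from here on. Early control held 28246 peaks and early RNAi 22489, late control held 25026 and late RNAi 15890. Late RNAi also had the narrowest peaks, and read depth per list is unknown here. Its smaller size bears on every overlap with it, and the part played by depth was not tested.

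The first question was where the gene-far peaks lie. On the X there were 469, on 2L 326, on 2R 315, on 3L 548, on 3R 430 and on chromosome 4 only 11. The arm 3L thus held the most, 26.1% of all members, and it also holds the most gene-far sequence, 29.0% of those bases. The X held 22.3% (20.6% to 24.2%) of the members on 14.4% of the gene-far bases. Per Mb of gene-far sequence, the X carried 190.3 members, 3R 138.9, 2L 129.0, 3L 110.2 and 2R 79.1. Chromosome 4 carried 122 per Mb, which rests on its 11 members. The autosomes together carried 111.1 per Mb, so that density on the X was 1.71 times that on the autosomes (1.54 to 1.90). The same ratio for the other late control peaks, per Mb of sequence in or near genes, was 1.49 (1.45 to 1.54). The X excess is therefore present far from genes as well as near them.

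**Figure D1:**
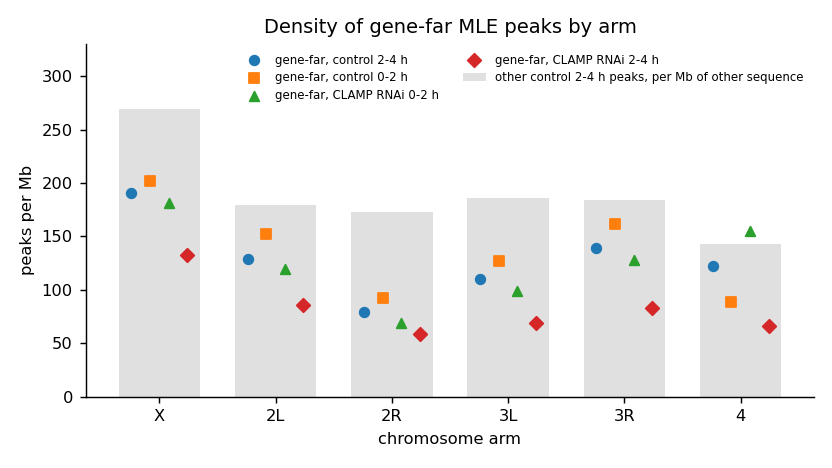
Peaks per Mb (vertical axis, linear) on each chromosome arm. Points are gene-far peaks of each of the 4 lists per Mb of gene-far sequence and grey bars are the other late control peaks per Mb of the remaining sequence; on each arm the late control point lies under its bar, from 79.1 against 172.6 on 2R to 190.3 against 269.1 on the X.

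On every arm the gene-far sequence carried fewer late control peaks per Mb than the rest of the arm. Over the 6 arms the densities were 122.5 and 196.5 per Mb, a ratio of 0.623 (0.596 to 0.652). The lower density was most marked at the centromeric ends. Within 5 Mb of the centromeric end of X, 2L, 2R, 3L and 3R, 503 members gave 55.5 per Mb of gene-far sequence. Other peaks there gave 130.7 per Mb, a pooled ratio of 0.424 (0.384 to 0.468). By arm the ratio in this zone was 0.488 on the X, 0.391 on 2L, 0.602 on 2R, 0.562 on 3L and 0.516 on 3R. The pooled value was thus lower than that of each arm but 2L. Farther out, 1585 members gave 198.7 per Mb, and other peaks gave 207.7 per Mb. That ratio, 0.957 (0.908 to 1.007), has an interval that includes equality.

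In the outer parts of single arms the ratio was lowest on 2R, where 1 long stretch moved the value. The ratio of gene-far to other density beyond 5 Mb was 1.04 (0.929 to 1.16) on the X, 0.984 (0.861 to 1.12) on 2L, 0.979 (0.883 to 1.08) on 3L and 0.997 (0.896 to 1.11) on 3R. On 2R it was 0.793 (0.683 to 0.916), with 194 members. The longest outer gene-free stretch of 2R, at 6255267 to 6501031, held 8 members at 33.9 per Mb, and without it the ratio on 2R was 0.925 (0.794 to 1.07). Leaving out the longest such stretch of each other arm gave 1.12 (1.003 to 1.26) on the X, 0.962 on 2L, 0.935 on 3L and 1.01 on 3R. The X interval then no longer included equality, and the 5 arms together gave 0.981 (0.930 to 1.03). Gene-far density beyond 5 Mb on the X was 294 per Mb, against 182.7 on the 4 large autosome arms, a ratio of 1.61 (1.42 to 1.82). For other peaks in the same zone, X over autosome density was 1.47 (1.43 to 1.52), and the 2 intervals overlapped. The pooled ratio of gene-far to other density beyond the zone depends on where the zone ends. With 2 Mb in place of 5 Mb it was 0.770, and with 8 Mb it was 0.996.

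**Figure D2:**
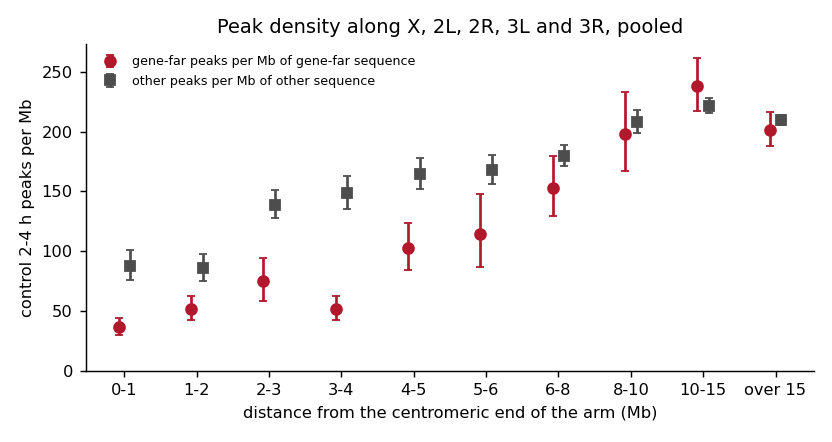
Late control peaks per Mb (vertical axis, linear) against distance from the centromeric end in Mb, with the 5 large arms pooled. Circles are gene-far peaks per Mb of gene-far sequence, squares are the other peaks per Mb of other sequence, and bars are exact Poisson 95% intervals of counting error; circles stand at 36.4 in the first Mb and at 238.5 at 10-15 Mb, where squares stand at 221.7.

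Density was higher away from the centromere in both classes, though not at every step, and the gap between them was smaller there. In the first Mb the gene-far density was 36.4 per Mb (29.7 to 44.1) and the other density 87.6 (75.5 to 100.9). At 4 to 5 Mb these were 102.6 (84.4 to 123.6) and 164.9 (152.4 to 178.1). At 8 to 10 Mb they were 197.8 (166.8 to 232.9) and 208.4 (199.2 to 217.9), and the intervals overlapped. Gene-far sequence is concentrated at the centromeric ends, which hold 9.07 Mb of it within 5 Mb, against 7.98 Mb in all the rest of these arms. Unsequenced bases, if any, count here as sequence without a peak, and their number was not determined. Whether reads could be placed equally well in all of this sequence was not tested.

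Density also differed with distance from a gene. Late control peaks numbered 196.2 per Mb inside genes, 198.1 up to 1000 bp from a gene and 197.1 from there to 5000 bp. Among the members, density was 176.2 per Mb (166.0 to 186.9) up to 10000 bp and 152.5 (140.9 to 164.7) between 10000 and 20000 bp. It was 70.5 (61.6 to 80.3) between 20000 and 50000 bp and 35.3 (29.3 to 42.2) beyond that. The last class lay almost wholly next to centromeres, with 95.04% of its 121 peaks within 5 Mb of a centromeric end. With these zones left out, density in these first 3 classes of members was 197.3, 215.9 and 183.5 per Mb, against 207.2 inside genes. Beyond 50000 bp, 6 members remained outside those zones, or 31.5 per Mb. That value rests on only 0.190 Mb of sequence, part of it in the long 2R stretch at 6255267 to 6501031.

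**Figure D3:**
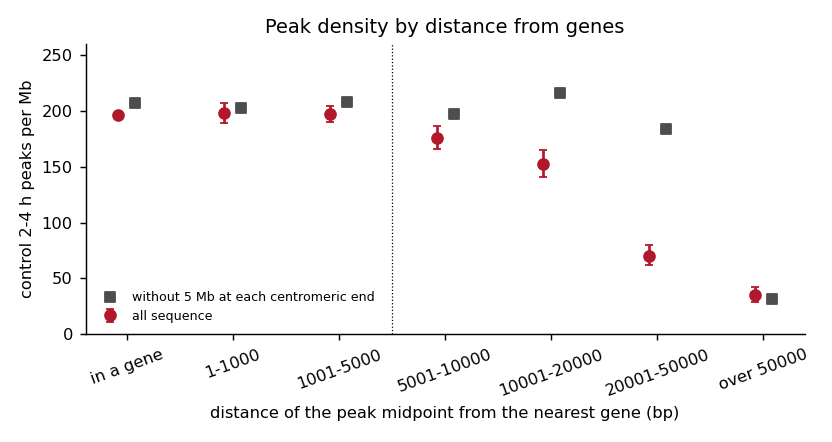
Late control peaks per Mb of sequence (vertical axis, linear) in classes of distance from the nearest gene in bp; the dotted line marks 5000 bp, right of which lie the gene-far peaks. Circles with exact Poisson 95% intervals are all sequence and squares leave out 5 Mb at each centromeric end. Between 20000 and 50000 bp the circle stands at 70.5 and the square at 183.5. The last square rests on 6 peaks in 0.190 Mb.

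Members lay between 5006 and 476529 bp from the nearest gene. Their distance to the nearest gene had a median of 9531 bp and quartiles of 6665 and 15250.5 bp. Of the 2099, 991 lay more than 10000 bp away, 346 more than 20000 bp and 64 more than 100 kb. The limit itself cuts through a continuous range. Just inside were a peak at 3L 9229990 to 9230298, 5006 bp from CG4483 (score 62), and a peak at 3L 12094046 to 12094421, 5008 bp from CG17154 (score 36). Just outside were peaks at 3L 22543221 to 22543666, 4994 bp from CG11404 (score 17), and at 3R 28655372 to 28655574, 4993 bp from CG31050 (score 33).

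Peak strength was examined next, by the rank of the authors' score within the late control list. The typical strength of gene-far peaks was that of the list. Their median score, 69, was also that of the other peaks, and the median member was at or above 51.3% of the list. Each score decile consisted of gene-far peaks to between 7.59% and 9.45%. The highest share was in the highest decile, with 236 members of 2497 peaks (8.33% to 10.7%), and the share in the lowest decile was 8.67%. Of all members, 11.2% were in the highest decile, against 9.86% of the other peaks, a difference of 1.38 points (0.0416 to 2.85). The strongest 1% of the list, 250 peaks, held 24 members, of which 10 lay on the X, 7 on 3R, 4 on 2R, 2 on 3L and 1 on 2L.

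Within the members, strength went with the arm. The X share of members was 16.0% in the lowest score decile and 34.3% in the highest. The median X member was at or above 60.8% of the list and the median autosomal member at or above 49.2%. For the other late control peaks these values were 58.1% and 49.2%.

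The 10 strongest members were sites with a peak in each of the 4 lists. Strong peaks of either class were mostly found again. Of the other peaks in the highest decile, 99.96% were found in early control, 99.9% in early RNAi and 94.3% in late RNAi. The strongest member lay at 3R 28373750 to 28374130 with a score of 181280, rank 11 of the late control list. It stands 20320 bp from Or98b, an odorant receptor gene, and 44268 bp from beat-VI, of the beaten path family of immunoglobulin superfamily proteins in axon guidance. The same site ranked 12 in early control, 15 in early RNAi and 19 in late RNAi, so it was among the strongest sites of every list.

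Next came X 1004156 to 1004536 (score 107402, rank 23), 6755 bp from TfIIA-S-2, which encodes a small-subunit paralog of the general transcription factor TFIIA. Its edges were at the same base in all 4 lists. Another stood at X 21567826 to 21568211 (score 87494, rank 27), between 2 lncRNA genes. On 3L the strongest member lay at 5449182 to 5449561 (score 71410, rank 34), 6972 bp from DIP-delta, which encodes a cell surface immunoglobulin protein that binds Dpr partners between neurons. The site at 3R 29549610 to 29549991 (score 69817, rank 35) lay 6586 bp from Dr, a homeobox gene of dorsoventral nervous system patterning. It ranked 404 in late RNAi and between 35 and 87 in the other lists.

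The remaining 5 of these sites had scores from 43348 to 60842. The one at X 21016228 to 21016612 (rank 44) lay 6970 bp from r-cup. On 2R the strongest member stood at 19042555 to 19042940 (score 57045, rank 46), 6360 bp from CG15115. At X 21807153 to 21807546 (score 49249, rank 57) a site lay 16618 bp beyond lncRNA:flam, the flamenco piRNA cluster that restrains transposons in ovarian follicle cells. On 2L the strongest lay at 22911153 to 22911533 (score 45194, rank 61), 13452 bp from lt, a vesicle trafficking gene embedded in heterochromatin. The last, at 3R 15619400 to 15619779 (rank 63), was 15879 bp from CG43335. On chromosome 4 the strongest member, 413751 to 414219 (score 1786, rank 1083), lay between mir-9385 and lncRNA:CR43437. It too had a peak in each list. In late RNAi the 10 strongest sites ranked between 19 and 516, each lower than in late control, by whose score they were chosen. Ranks there were 516 for the 2R site, 349 for X 21016228 and 261 for 3R 15619400. These ranks were not compared with those of other peaks of like score.

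Overlap with the other lists was then counted, with at least 1 shared base. Of the 2099 members, 1562 were found in early control, or 74.4% (72.5% to 76.3%), where the whole late control list gave 74.0%. In early RNAi 1442 were found, or 68.7% (66.7% to 70.7%), against 68.3% of the whole list. In late RNAi 872 were found, or 41.5% (39.4% to 43.7%), against 40.6%. The gene-far peaks were thus found about as often as the list they belong to. Set against the 22927 other peaks, the difference was 0.403 points (-1.59 to 2.31) for early control, 0.431 points (-1.67 to 2.47) for early RNAi and 0.993 points (-1.19 to 3.21) for late RNAi. These intervals reach at most 3.21 points and do not show that the classes are equal.

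Standardised over score deciles, the differences were 0.0248, -0.0303 and 0.0966 points in the same order. In the lowest decile 42.3% of members were found in early control, 32.9% in early RNAi and 20.2% in late RNAi, against 44.99%, 32.2% and 15.3% of other peaks. The intervals of these 3 differences include 0, the widest gap being 4.86 points (-0.218 to 10.9) for late RNAi. In the highest decile all 236 members were found in both 0-2 h lists, and 222 (94.1%, 90.2% to 96.7%) in late RNAi, against 94.3% of other peaks there. In the highest of 4 score classes of like size, 98.6% of members and 99.5% of other peaks were found in early control, a difference of -0.894 points (-2.26 to -0.163). In that class the difference was -0.700 points (-2.01 to -0.0235) for early RNAi and 0.0213 points (-3.63 to 3.30) for late RNAi. These 2 small deficits rest on 8 and 7 members that were not found, and their intervals are not adjusted for the number of comparisons.

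**Figure D4:**
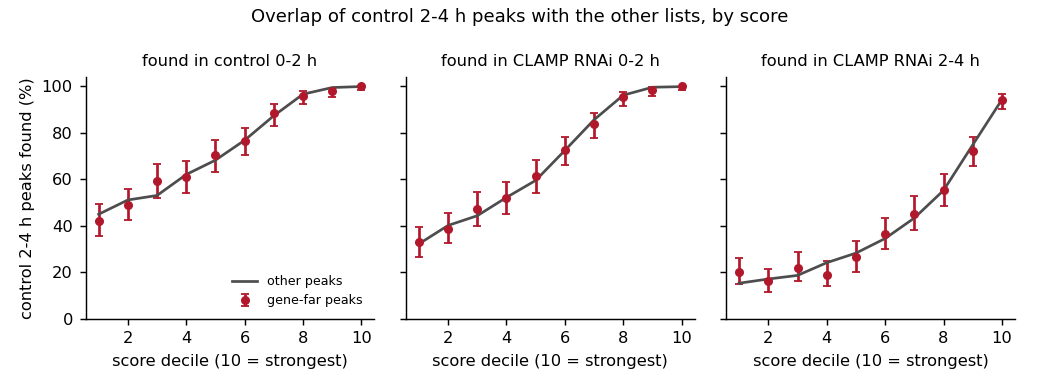
Share of late control peaks with at least 1 base shared with a peak of the list named above each panel (vertical axis, %), by score decile of the late control list. Points are gene-far peaks with exact 95% binomial intervals and the line is the other peaks; in the highest decile the points stand at 100%, 100% and 94.1%, and the line passes through the interval of 29 of the 30 points.

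Taking the 3 lists together, 707 members (33.7%, 31.7% to 35.8%) had a peak in each, against 33.4% of the whole list. A further 539 (25.7%) were missing from late RNAi alone, against 26.3% of the whole list. No other list held 294 members, or 14.0% (12.5% to 15.6%), against 15.1%. Leaving the late RNAi list out of the search, 59.4% of members were found in both 0-2 h lists, against 59.7% of the whole list, and 16.2% in neither, against 17.3%. Members found in early control and in no CLAMP RNAi list numbered 256 (12.2%, against 11.5% of the whole list). Those shared with late RNAi alone, the list of the same age, numbered 47 (2.24%, against 2.23%). Among the 8 combinations, 1 had an interval of the difference from other peaks that did not include 0, namely both CLAMP RNAi lists without early control, with 58 members (2.76%) against 2.08% of other peaks, a difference of 0.678 points (0.0293 to 1.49). The interval is not adjusted for the 8 combinations.

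**Figure D5:**
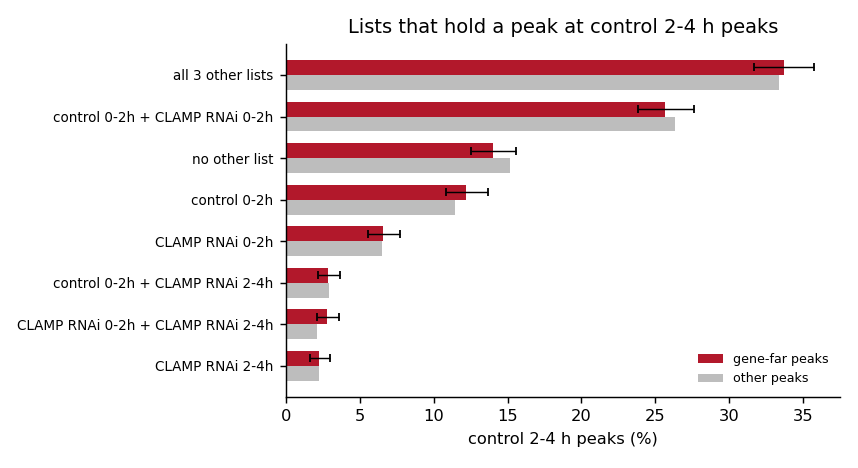
Share of late control peaks (horizontal axis, %) by the exact set of other lists that hold a peak there. Red bars are the 2099 gene-far peaks with exact 95% binomial intervals and grey bars the 22927 other peaks; the bars for all 3 other lists reach 33.7% and 33.4%, and those for no other list 14.0% and 15.2%.

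Members found in every list were mostly strong and those in no other list mostly weak. Of the 707 members with a peak in each list, 87.7% ranked in the upper 50% of the list, and of the 294 in no other list, 89.8% ranked in the lower 50%. Among other peaks these shares were 85.5% and 90.04%. The X held 28.1% (24.9% to 31.6%) of the former and 14.6% (10.8% to 19.2%) of the latter, beside 31.1% and 16.0% among other peaks. Both intervals of the difference from other peaks include 0. On the X, members were found in early control in 80.2%, in early RNAi in 78.5% and in late RNAi in 49.0%. On autosomes these shares were 72.8%, 65.9% and 39.4%. The X minus autosome differences were 7.41 points (3.02 to 11.4), 12.6 points (8.03 to 16.8) and 9.65 points (4.56 to 14.7). Among the other peaks they were 8.39, 10.9 and 10.8 points, each inside the interval of the members. X peaks are denser and stronger, and the share of the difference that goes with density or score was not tested.

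The strongest members of no other list were modest peaks. At 3L 25131207 to 25131762 a peak with a score of 282 (rank 4508) lay 5313 bp from UQCR-11, a gene for a subunit of mitochondrial complex III. Another, at 2R 1181245 to 1181619 (score 229, rank 5188), lay 25984 bp from the pseudogene CR42653, with rl, the fly ERK kinase gene, as its other neighbour. The next 3 had scores of 174, 124 and 124. Their nearest genes were Sgs5bis at 9068 bp, CG44102 at 24793 bp and Mur89F at 7463 bp. Only the first 2 of the 5 were in the highest of the 4 score classes, and no member of no other list was in the highest decile.

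Some members missing from late RNAi alone were strong. The strongest lay at 2R 6850530 to 6850921 (score 10159, rank 249), between lncRNA:CR44166 and coro, the gene of the actin-binding protein coronin. It ranked 317 in early control and 462 in early RNAi. The next, at 2L 14894720 to 14895109 (score 3258, rank 683), had side-II, of the sidestep family of axon guidance proteins, as a neighbour. One at 2R 13367950 to 13368364 (score 1632) lay 5322 bp from lncRNA:CR45312 and 7818 bp from CG10814. The site at 3R 13887688 to 13888068 (score 1162, rank 1507) lay between E5 and ems, neighbouring homeobox genes with roles in head development. The last, at 3L 14962743 to 14963128 (score 1157), lay 6409 bp from Tom, which encodes an antagonist of Notch signalling. In all, 14 of the 236 members of the highest decile were missing from that list, or 5.93%, against 5.71% of the other peaks of that decile.

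Strong members kept their edges between lists more often than weak ones, and so did strong other peaks. Members of the highest decile had a median width of 383 bp, as other peaks of that decile did. Of the 236 members of that decile, 69.1% had both edges within 10 bp of those of the early control peak, and 69.5% had both within 10 bp of the early RNAi edges. For late RNAi this held for 57.7% of the 222 found. Other peaks of the decile gave 73.2%, 76.4% and 54.6%. The difference was -6.91 points (-13.3 to -1.11) for early RNAi, and its interval included 0 for early control, at -4.12 points (-10.5 to 1.74), and late RNAi, at 3.06 points (-3.84 to 9.72). Members of the lower 5 deciles had a median width of 268 bp, and 16.8% of the 573 found in early control kept both edges within 10 bp, against 14.8% of other peaks. For early RNAi the shares in those deciles were 21.2% and 16.9%, a difference of 4.31 points (0.704 to 8.35), opposite in sign to that of the highest decile. Intervals deposited more than once made up 8.15% of members and 9.72% of other peaks, a difference of -1.58 points (-2.74 to -0.272).

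Many members shared a gene-free stretch with others. There were 987 stretches between genes, or between a gene and an arm end, with at least 1 gene-far base, and 640 of them held a member. Of these, 219 held a single one and 30 held 10 or more, the latter with 424 members among them. A gene-far peak of each list stood in 445 stretches and none of any list in 218. Stretches with a member were longer, with a median of 21.6 kb against 12.3 kb for those without. Longer stretches offer more gene-far bases, so a difference in this direction follows from the definition of a member. In 13 stretches with a member there was no gene-far peak of another list.

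The stretch with the most members lay next to the centromere of 3L, from 26371357 to 27082090, between CG42598 and CG40228. In its 710.7 kb it held 40 members, with 30 gene-far peaks in early control, 36 in early RNAi and 22 in late RNAi. Of its members 13 were found in each other list and 6 in none, where the whole late control list gave 33.4% and 15.1%. Its density was 57.1 members per Mb, beside 55.5 for all gene-far sequence within 5 Mb of a centromeric end.

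The second, on the outer part of 3L from 10696878 to 10771924, was of a different kind. It lies between NijA, which encodes a ninjurin cell adhesion protein, and CG43245. Its 75.05 kb held 31 members, or 476.6 per Mb of gene-far sequence, with 34, 31 and 20 gene-far peaks in early control, early RNAi and late RNAi. The members there were many but not strong, the highest score being 440. Of the 31, 13 were found in each other list and 1 in none, against 33.4% and 15.1% of the whole list.

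The next, at the centromeric end of the X from 23291730 to 23538214, lies between 2SrRNA:CR45864 and mir-10404-5, both parts of ribosomal DNA. Its 246.5 kb held 22 members, of which 9 were found in each other list and 8 in none. For the whole list these shares were 33.4% and 15.1%. On 3R, 14923762 to 15004280 between lncRNA:CR45598 and lncRNA:CR45599 held 17 members, and on 2L, 12841896 to 12912529 between lncRNA:CR44971 and ACXC, an adenylyl cyclase gene, held 16. Of these, 5 and 4 were found in each other list, against 33.4% of the whole list.

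The 27 stretches over 100 kb held 33.0% of the gene-far bases and 10.8% of the members. Each held at least 1 member, and together they had 40.1 per Mb of gene-far sequence, whereas shorter stretches had 163.2. The longest of them lay mostly within 5 Mb of a centromeric end. Gene-far sequence there had 55.5 members per Mb, against 198.7 farther out, and stretch length was not tested apart from this. The longest stretch with no member measured 75.7 kb, at 2R 1267748 to 1343402 between CG40191 and Yeti. In it early control had 1 gene-far peak and the other lists 0.

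The members farthest from a gene lay mostly at the centromeric end of 3R. At 3R 90448 to 90647 a peak of the lowest score, 13, lay 476529 bp from Myo81F, a myosin gene and the first gene of the arm in the table. It was in no other list. The next, at 3R 100395 to 100775, had a score of 1762 (rank 1093) and lay 466491 bp from Myo81F. That site had a peak with the same edges in each list, with rank 935 in early control, 1054 in early RNAi and 2692 in late RNAi. A stronger one still, at 3R 189602 to 189980 (score 4925, rank 465), was also found in each list. The other 2 of the 5 farthest were weak, with scores of 21 and 19.

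Flanking genes were of many kinds. The members had 900 different nearest genes, of which 435 were nearest to 1 member. Protein-coding genes flanked 951 members (45.3%) on both sides, 922 on 1 side and 226 on neither. The nearest gene was protein-coding for 68.6% of members and a lncRNA gene for 25.9% (24.0% to 27.8%), although lncRNA genes are 11.1% of genes in the table. Shares above that of the table were also found at the edges of gene-free stretches at large and beside peaks nearer to genes. For other late control peaks between genes the nearest gene was protein-coding in 71.5%, and members minus these peaks gave -2.91 points (-5.30 to -0.561). The borders of the 987 stretches were lncRNA genes in 27.3%, and stretches with and without a member differed by 1.56 points (-2.60 to 5.60). Of the other peaks between genes, at most 5000 bp from one, 24.3% had a lncRNA gene nearest, and members minus these peaks gave 1.59 points (-0.623 to 3.86). The genes nearest to most members were CG42598 with 22, CG40228 with 20, NijA with 17, and CG43245 and DIP-lambda with 14 each.

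The same rule was applied to the other lists. Gene-far peaks numbered 2389 in early control (8.46% of the list), 1921 in early RNAi (8.54%) and 1385 in late RNAi (8.72%), beside 8.39% in late control. RNAi share minus control share was 0.0841 points (-0.403 to 0.574) among early embryos and 0.329 points (-0.224 to 0.890) among late ones. Both intervals include 0. The X share of gene-far peaks was 20.8% in early control, 23.2% in early RNAi, 22.3% in late control and 23.6% in late RNAi. RNAi minus control, it differed by 2.37 points (-0.112 to 4.87) in early embryos and by 1.27 points (-1.57 to 4.15) in late embryos, and both intervals include 0. Beyond 5 Mb of the centromeric ends, the ratio of gene-far to other density was 0.985 (0.939 to 1.032) in early control, 0.970 (0.919 to 1.024) in early RNAi and 0.97497 (0.914 to 1.039) in late RNAi. Within 5 Mb this ratio, pooled over the large arms, lay between 0.418 and 0.468 in the 4 lists. The split by distance from the centromere was thus present in each.

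Looked up in the other direction, 65.1% of gene-far early control peaks, 76.0% of gene-far early RNAi peaks and 63.0% of gene-far late RNAi peaks had a late control peak. The differences from other peaks of the same list were 0.345 points (-1.67 to 2.32), -0.763 points (-2.81 to 1.18) and -2.15 points (-4.83 to 0.476). Among gene-far peaks in the strongest 10% of each list, 252 of 252, 207 of 209 and 131 of 148 were found in late control. Other peaks of the strongest 10% were found in 100%, 99.6% and 93.9%. For late RNAi the gene-far share was 88.5%, a difference of -5.36 points (-11.6 to -0.958), and for early RNAi the difference was -0.565 points (-3.04 to 0.227).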

How the data were processed

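MLE CUT&RUN of whole male embryos gave 4 peak lists, 1 per group of age and maternal genotype. Per the submitters' processing notes, the tools were FastQC, Trim Galore, BWA, Bowtie2, SAMtools, Picard 2.20.2 and MACS2, and the build dm6. Their settings, any control library and the pooling of replicates are not given in the sources used here. The deposited score in each list is the authors' own whole number, never below 13, and was used only to rank and filter peaks within a list.

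From there, repeated intervals were collapsed to 1 with the highest score (2683 repeats in control 2-4 h). Distances run from the peak midpoint to the nearest of 17684 RefSeq genes on the 6 arms, of Release 6, the assembly behind dm6. Coordinates are 1-based. Arm lengths are the largest coordinate in the lists or the gene table. Centromeric ends are the high end of X, 2L and 3L and the low end of 2R and 3R. Base counts are exact. Ranks count stronger peaks plus 1. A peak was found in a list when at least 1 base was shared. Shares carry Clopper-Pearson intervals, differences Newcombe intervals and density ratios exact conditional intervals, all at 95%. They cover counting error only. Peaks that neighbour each other are not independent. Named sites are the 10 strongest members, the strongest per arm, the 5 farthest, the 5 strongest in no other list, the 5 strongest missing from CLAMP RNAi 2-4 h alone, the 5 fullest stretches and those around the 5000 bp limit. The longest stretch with no member and the nearest genes with most members were chosen after their values were seen. The members and the lists of results were chosen with earlier results of these data known, and the comparison of density by centromere distance, all its alternatives (zones of 2 and 8 Mb, a score of at least 50, limits of 2000 and 10000 bp, and the longest outer stretch of each arm left out) and the search without the CLAMP RNAi 2-4 h list were added after the data were seen. Python 3.11.15, numpy 2.4.6, pandas 2.3.3 and scipy 1.17.1 were used, and distance, overlap and interval code was tested on simulated data. No genome sequence was used here, so the planned comparison of base composition and repeats was not made.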

Additional observations from a re-analysis of the deposited data

Results flagged for a closer look

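Gene-far peaks of the RNAi list were slightly wider than those of its control in early embryos and narrower in late embryos. CLAMP RNAi minus control, the median width differed by 8 bp at 0-2 h (367 and 359 bp) and by -118 bp at 2-4 h (256 and 374 bp). The share of gene-far peaks at the lowest width, 200 bp, differed by -3.50 points at 0-2 h and by 22.9 points at 2-4 h, where it was 34.6% in CLAMP RNAi and 11.7% in control. The median width of the other peaks of the same lists differed by 2 bp at 0-2 h and by -131 bp at 2-4 h, so the narrower late peaks were found across the whole list. Whether the ages differ in this was not tested, since each group has a single list.

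The Y was outside all comparisons. On it, 54 of 123 control 2-4 h intervals (43.9%) lay more than 5000 bp from a Y gene of the table, and 57 of 122, 44 of 97 and 51 of 110 did so in control 0-2 h, CLAMP RNAi 0-2 h and CLAMP RNAi 2-4 h.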

How the results depend on the processing

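Of 55 alternative values for 14 results, 32 stayed within the interval of the value reported (counts within 1.5 times) and 23 moved. The count of gene-far peaks was 3805 (15.2% of the list) with a limit of 2000 bp, 991 (3.96%) with 10000 bp and 1322 with a score of at least 50. The X share became 19.6% with 10000 bp and 25.04% with a score of at least 50. Found shares moved for control 0-2 h to 70.0% with 50% of the length shared, 70.9% with midpoints within 200 bp and 88.0% with a score of at least 50. For CLAMP RNAi 0-2 h they moved to 63.8% with 50% of the length, 84.3% with that score and 73.8% in lists of equal length. For CLAMP RNAi 2-4 h they moved to 35.5%, 39.2%, 54.6% and, in lists of equal length, 54.1%. That length, 15890 peaks, is the length of this list, so only the other lists lost their weaker peaks, and 1346 members remained. At equal length control 0-2 h gave 72.8%, so the share found in CLAMP RNAi 2-4 h was still the lowest. The differences between gene-far and other peaks stayed within their intervals under both alternatives tried. Chosen after seeing the data, leaving out CLAMP RNAi 2-4 h gave 16.2% in no other list and 59.4% in all others. The density ratio beyond the centromeric zone moved to 0.770 with 2 Mb. Within the zone it moved to 0.499 with 2 Mb, 0.499 with a limit of 2000 bp and 0.354 with 10000 bp. The cause was not tested. No paired analysis was possible because each group has 1 list. Leaving out replicates was not possible either. Depth per list is unknown, which limits every overlap with the shortest list.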
